A study of Homo sapiens with 24 samples.

Results

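Huh7 cells given P. chinensis extract were compared directly with Huh7 cells given B. chinense extract. The comparison used 6 of the 24 RNA-seq libraries of the study, 3 of each herb, and left out the control and P. umbellatus libraries. All genes with a mean count above 5 over these 6 libraries were tested, which kept 13921 of the 14585 genes in the table and left out 664. Huh7 is a human hepatocellular carcinoma line, labelled WT for genotype in both groups. The study states that this line carries mutant p53, so the label does not describe p53. Pulsatilla chinensis and Bupleurum chinense are medicinal plants, and each extract was made with ethanol, freeze-dried and taken up in DMSO. The groups therefore differ in the herb, and each extract is a mixture of many compounds. Neither the dose and time of the sequenced cells nor the solvent of the control cells is stated in the sources used here. The 3 libraries of a group are labelled as replicates with nothing said of separate cultures, so p-values measure the spread between these samples, which may be technical.

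Several gene programs that liver cancer cells use to answer signals are read below. AP-1, a dimer of FOS and JUN family proteins, and the other immediate early genes are transcribed within minutes of growth factor or stress signals, and the MAP kinase ERK and its phosphatases set how long they stay on. NF-kB is held in the cytoplasm by IkB proteins until inflammatory signals free it to switch on chemokines, survival genes and its own inhibitors. Hepatocytes make cholesterol and fatty acids under SREBP transcription factors, with NF-Y bound to CCAAT boxes as a frequent partner, and they export the lipids on apolipoprotein B. E2F factors turn on the genes of DNA replication as cells enter S phase, when the replication-dependent histones are also made.

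Some promoters of these programs carry recognisable motifs. The following sequences are shown because each holds a match to such a motif near the start of a gene that differed between the herbs. They are RefSeq promoters of build GRCh38.p14, cut to the 120 bases that end just before the annotated start, written 5′ to 3′ along the gene's strand, with the motif in capitals. The genes were picked after their values were seen, so the windows illustrate the motifs and are no test of them. For NF-kB, the windows of the chemokine genes CXCL1 (chr4:73869273-73869392, plus strand) and CXCL2 (chr4:74099196-74099315, minus strand) and of NFKBIA (chr14:35404750-35404869, minus strand), which encodes the inhibitor IkB-alpha, are given.
CXCL1: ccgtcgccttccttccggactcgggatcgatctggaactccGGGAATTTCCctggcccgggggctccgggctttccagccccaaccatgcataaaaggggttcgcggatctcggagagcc
CXCL2: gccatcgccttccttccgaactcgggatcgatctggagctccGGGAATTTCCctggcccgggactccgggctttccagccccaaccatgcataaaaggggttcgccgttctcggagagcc
NFKBIA: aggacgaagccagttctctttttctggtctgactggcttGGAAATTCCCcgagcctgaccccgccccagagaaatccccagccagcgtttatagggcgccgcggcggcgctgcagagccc
The CArG box binds serum response factor, and EGR1 (chr5:138465359-138465478, plus strand), a zinc finger immediate early gene, holds 2 of them in this window. AREG (chr4:74445016-74445135, plus strand), which encodes the EGF receptor ligand amphiregulin, holds a cyclic AMP response element (CRE).
EGR1: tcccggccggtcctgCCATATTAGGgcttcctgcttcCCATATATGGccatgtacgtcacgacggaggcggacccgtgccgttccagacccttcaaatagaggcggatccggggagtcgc
AREG: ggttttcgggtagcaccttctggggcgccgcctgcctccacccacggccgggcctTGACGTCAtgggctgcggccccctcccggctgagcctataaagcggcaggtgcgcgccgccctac
MSMO1 (chr4:165327549-165327668, plus strand), a sterol synthesis enzyme, and H1-1 (chr6:26017788-26017907, minus strand), a linker histone, each hold a CCAAT box. MCM6 (chr2:135876444-135876563, minus strand), a subunit of the replicative helicase, holds 2 overlapping E2F matches, and E2F1 (chr20:33686386-33686505, minus strand) holds an E2F match in its own promoter.
MSMO1: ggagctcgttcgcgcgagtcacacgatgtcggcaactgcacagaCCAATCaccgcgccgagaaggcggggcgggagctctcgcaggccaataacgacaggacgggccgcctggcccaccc
H1-1: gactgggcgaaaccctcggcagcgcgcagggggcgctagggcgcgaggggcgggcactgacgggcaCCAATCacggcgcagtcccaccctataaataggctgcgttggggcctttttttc
MCM6: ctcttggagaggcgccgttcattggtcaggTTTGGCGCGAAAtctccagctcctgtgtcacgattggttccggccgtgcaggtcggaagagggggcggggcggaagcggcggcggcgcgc
E2F1: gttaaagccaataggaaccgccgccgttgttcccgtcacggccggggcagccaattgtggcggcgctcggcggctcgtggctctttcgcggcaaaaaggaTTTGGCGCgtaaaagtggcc

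A promoter of 300 bases, from 250 bases before to 50 bases after the start, was matched by symbol for 11283 of the 13921 genes, and motifs were searched on both strands. The AP-1 motif TGANTCA was in 4.751% of all these promoters, in 7.768% of those of genes higher with P. chinensis and in 3.599% of those of genes higher with B. chinense. NF-kB matches were in 8.73%, 10.55% and 8.927% of the promoters in the same order, and CArG boxes in 1.126%, 2.289% and 1.038%. Among the 70 promoters of genes that were higher with P. chinensis by more than 1 on the log2 scale and averaged 100 counts or more, 14 held the AP-1 motif (20%), 14 an NF-kB match (20%) and 8 the CRE TGACGTCA (11.43%, against 3.137% of all promoters). Over all genes called, the CRE shares were near that of all promoters. They were 3.761% for genes higher with P. chinensis and 3.183% for genes higher with B. chinense. On the other side, E2F matches (TTTGGCGC, TTTCCCGC or TTTCGCGC) were in 4.423% of all promoters, in 7.197% of those of genes higher with B. chinense and in 3.271% of those of genes higher with P. chinensis. Within the gene lists described below, an NF-kB match was in 8 of 12 promoters of chemokines and cytokines and in 6 of 14 promoters of NF-kB subunits and inhibitors. An E2F match was in 16 of 32 S phase promoters. Other lists held few matches. The AP-1 motif was in 1 of 10 promoters of AP-1 subunits and partners and in 0 of 16 of other immediate early genes. A CArG box was in 2 of 16 promoters of other immediate early genes, and the CRE in 1 of 10 of the EGF receptor family. CCAATC or CCAATG was in 15 of 18 promoters of cholesterol genes and in 47 of 54 histone promoters, against 29.08% of all promoters. By call the shares were closer: 32.73% for genes higher with B. chinense, 28.54% for genes higher with P. chinensis and 28.54% for genes not called. It was also in 17 of 19 promoters of endoplasmic reticulum chaperones, a list that differed little between the herbs. The sterol regulatory element TCACNCCAC was in 1 of the 18 cholesterol promoters. A match is a run of letters and not a bound site, and no test was made of these shares.

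The P. chinensis libraries summed to 24340250, 22917605 and 13259204 counts and the B. chinense libraries to 9526159, 10978665 and 11546100, so the depths of the groups did not overlap. Mitochondrially encoded genes took 2.53% to 2.90% of the counts with P. chinensis and 1.94% to 2.45% with B. chinense. All 8 markers of hepatocytes were expressed, with sums of 13278 to 14113 CPM (counts per 1000000 counts of a library, after TMM normalization) with P. chinensis and 19304 to 19893 CPM with B. chinense, with APOB making up most of that gap and FGB higher with P. chinensis. Of the 5 A549 markers in the table, KRT7, KRT81 and MUC5AC stayed at or below 0.151 CPM, ALDH3A1 read 0.679 to 1.805 CPM and SFTPB 3.61 to 5.21 CPM. In the A549 libraries SFTPB read 1.35 to 2.73 counts per 1000000 without TMM normalization, so it did not set A549 cells apart here. PTPRC and CD14, the leukocyte markers in the table, summed to 2.33 to 3.09 CPM and 3.39 to 3.89 CPM. In bulk RNA, fewer cells of a kind and less RNA per cell cannot be told apart. On the first principal component of the 6 libraries, which carried 49.4% of the variance, the herbs lay apart, at -19.5 to -13.9 for P. chinensis and 13.8 to 18.6 for B. chinense.

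A total of 1507 genes were higher with P. chinensis (10.8% of those tested) and 1777 were higher with B. chinense (12.8%) by the two-sided quasi-likelihood test of edgeR, with Benjamini-Hochberg adjusted p below 0.05. Fold changes are given as log2 of P. chinensis over B. chinense, with the standard error (SE), and "higher" and "lower" below refer to P. chinensis. The differences were mostly moderate: the median log2 fold change was 0.40 for the higher genes and -0.31 for the lower ones. Large differences lay on the P. chinensis side, where 227 genes exceeded 1, against 32 genes below -1. Of the 3284 genes called, 3260 had values that did not overlap between the groups. With 3 libraries per group this follows largely from the calls, so it adds no separate evidence. Genes that were not called could be separated as well, such as JUN, CDKN1A and FOXM1. The higher genes had a median level of 39.4 CPM and a median transcript length of 1256.5 bases, and the lower genes 95.9 CPM and 1742 bases, against 26.9 CPM and 1485 bases over all genes tested. In this fit 45.9% of the genes called were higher. The split moved to 35.6% after a correction for GC content and transcript length, which gave 1238 higher and 2238 lower genes, and to 56.1% with upper quartile normalization. Thinned to the depth of the smallest library, the counts gave 1358 higher and 1632 lower genes. Without P. chinensis replicate 1 there were 994 higher genes, and in a fit that shared its spread over all 12 Huh7 libraries there were 503 higher and 635 lower genes. Without P. umbellatus replicate 2, a library left out after seeing the data, that last fit gave 1269 and 1587. The reason for this change was not tested. Of the 163 genes called and named here, 32 lost their call in the 12-library fit and 2 in the fit of 11 libraries. In the plot of all genes, the spread to the upper side is seen at low and middle levels, and the lipid genes stand out on the lower side at high levels.

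**Figure D1:**
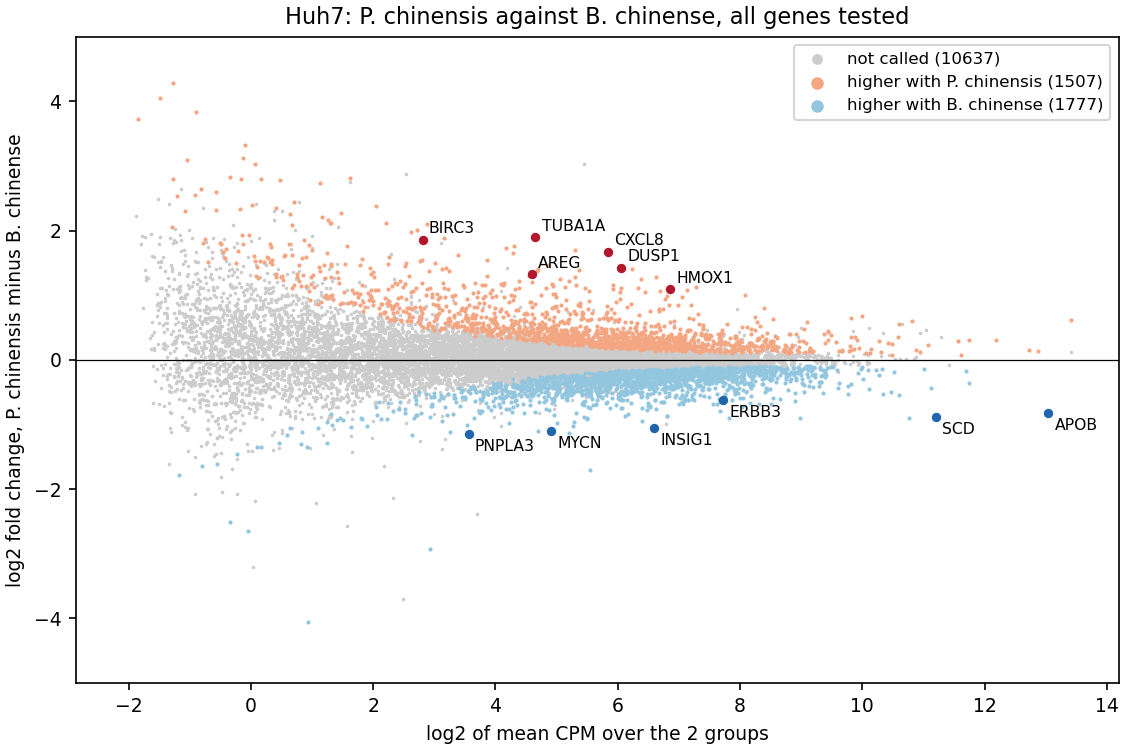
Difference between the herbs in Huh7 cells for all 13921 genes tested. The horizontal axis is the log2 of the mean CPM over the 6 libraries and the vertical axis the log2 fold change of P. chinensis over B. chinense, with the 1507 higher and 1777 lower genes coloured, 12 genes labelled and 17 genes outside the plotted range left out.

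AP-1 genes were higher with P. chinensis. Of the 13 AP-1 subunits and partners tested, 8 were higher and none was lower (61.5% higher, against 10.8% of all genes), and their median log2 fold change was 0.84, against 0.0063 over all genes tested. FOSB, a FOS family subunit, read 31.5, 30.4 and 29.8 CPM in the P. chinensis libraries and 8.49, 10.1 and 8.39 CPM in the B. chinense libraries (log2 fold change 1.77 ± 0.11 SE, adjusted p = 1.8e-06), a 3.401-fold difference. The control libraries, which are not part of the test, had a mean of 3.04 CPM. JUNB, a JUN family subunit, read 106, 104 and 121 CPM in the P. chinensis libraries and 49.6, 50.1 and 52.9 CPM in the B. chinense libraries (log2 fold change 1.11 ± 0.067 SE, adjusted p = 1.4e-06). Both genes had every P. chinensis library above every B. chinense library by a wide margin. ATF3, a stress-induced factor that pairs with JUN proteins, read 33.3, 34.6 and 33.9 CPM in the P. chinensis libraries and 11.7, 14.7 and 17.8 CPM in the B. chinense libraries (log2 fold change 1.197 ± 0.13 SE, adjusted p = 7.7e-05). MAFF and MAFK, small Maf proteins that bind DNA with larger partners, were higher by 0.84 and 0.59 on the log2 scale (adjusted p = 3.5e-05 and 2e-05). JUN itself did not pass the threshold, at 115, 126 and 139.8 CPM in the P. chinensis libraries and 93.4, 113 and 107 CPM in the B. chinense libraries (log2 fold change 0.27 ± 0.087 SE, adjusted p = 0.052), although its groups did not overlap. JUN was called by DESeq2 (adjusted p = 0.010), with thinned counts (0.030), and in other alternatives.

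The other immediate early genes moved the same way, with 16 of 22 tested higher and 1 lower (median 0.56). KLF4, a zinc finger factor of differentiation, read 63.5, 59.8 and 57.3 CPM in the P. chinensis libraries and 29.2, 26.2 and 28.2 CPM in the B. chinense libraries (log2 fold change 1.11 ± 0.076 SE, adjusted p = 3e-06). The related factors KLF10, induced by TGF-beta, and KLF6 were higher by 0.94 and 0.71 (adjusted p = 2.4e-06 and 6.2e-06). EGR1, whose CArG boxes are printed above, read 58.5, 50.99 and 63.3 CPM in the P. chinensis libraries and 31.5, 32.4 and 36.1 CPM in the B. chinense libraries (log2 fold change 0.78 ± 0.092 SE, adjusted p = 0.00013). CCN1, a secreted matrix protein, read 168, 166 and 193 CPM in the P. chinensis libraries and 81.2, 98.1 and 89.8 CPM in the B. chinense libraries (log2 fold change 0.97 ± 0.079 SE, adjusted p = 4e-05), and CCN2, the other member of its family in the list, stood at 398, 379 and 397 CPM in the P. chinensis libraries and 402, 409 and 398 CPM in the B. chinense libraries with a log2 fold change of -0.041 (adjusted p = 0.41). CCN1 thus differed between the herbs, and the CCN2 values of the groups overlapped. VGF, a secreted peptide precursor induced by growth factors, had a 3.69-fold difference, at 12.5, 13.6 and 15.8 CPM in the P. chinensis libraries and 4.25, 4.305 and 2.85 CPM in the B. chinense libraries (log2 fold change 1.88 ± 0.19 SE, adjusted p = 4.3e-05), with a control mean of 0.545 CPM. The lower gene was KLF2 (-0.39, adjusted p = 0.015), which was not called without P. chinensis replicate 2 (adjusted p = 0.065) or without B. chinense replicate 2 (0.055).

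**Figure D2:**
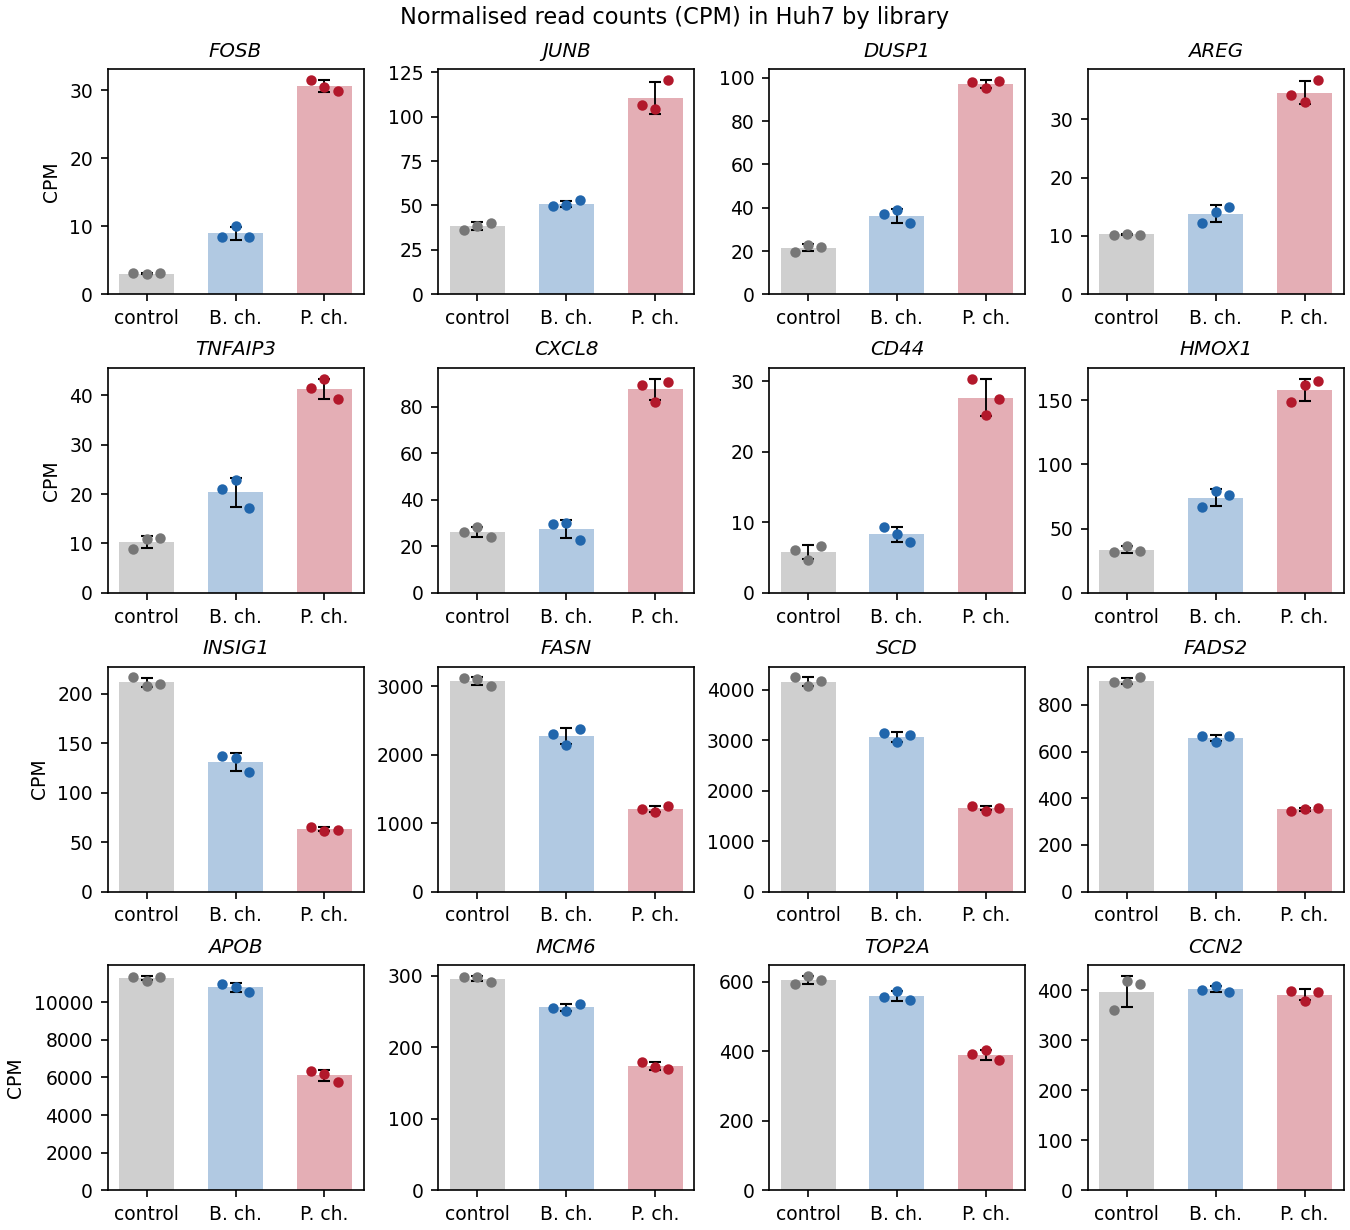
CPM of 16 genes in the 3 control, 3 B. chinense and 3 P. chinensis libraries of Huh7 cells, in a panel per gene with its own linear axis from 0. Bars are means, error bars SDs (n = 3) and points the libraries; FOSB, DUSP1 and CXCL8 stand highest with P. chinensis, the lipid genes lowest, and CCN2 is level.

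The ERK feedback genes split. Of 21 phosphatases, Sprouty proteins and ETS factors, 6 were higher and 7 lower (median 0.05). These shares, 28.6% and 33.3%, stood against 10.8% and 12.8% of all genes. DUSP1, a nuclear phosphatase of the MAP kinases, read 98.01, 95.3 and 98.6 CPM in the P. chinensis libraries and 37.1, 38.8 and 32.8 CPM in the B. chinense libraries (log2 fold change 1.43 ± 0.067 SE, adjusted p = 3e-07), a 2.69-fold difference, and DUSP5, a nuclear ERK phosphatase, was higher by 0.47 (adjusted p = 0.00024). Among the lower members, SPRY1, an inhibitor of growth factor receptor signalling, read 22.2, 19.6 and 21.2 CPM in the P. chinensis libraries and 40.03, 33.6 and 33.7 CPM in the B. chinense libraries (log2 fold change -0.77 ± 0.10 SE, adjusted p = 0.00026). The related ETS factors ETV1, ETV4 and ETV5 were lower together, at -0.54, -0.40 and -0.30 (adjusted p = 0.00056, 0.00032 and 0.00072), while ETS2 was higher at 0.39 (0.00012). The members of the list thus lay on both sides, with the largest difference for DUSP1.

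Members of the EGF receptor family differed in both directions. AREG read 34.1, 32.9 and 36.8 CPM in the P. chinensis libraries and 12.2, 14.1 and 15.1 CPM in the B. chinense libraries (log2 fold change 1.32 ± 0.11 SE, adjusted p = 8.4e-06), a 2.498-fold difference. HBEGF, a membrane-anchored EGF receptor ligand, read 7.07, 8.33 and 10.49 CPM in the P. chinensis libraries and 2.87, 3.11 and 3.11 CPM in the B. chinense libraries (log2 fold change 1.495 ± 0.20 SE, adjusted p = 0.00038). These ligands were at low levels with B. chinense, somewhat above their control means of 10.3 and 2.39 CPM. For both genes every B. chinense library lay above every control library, a gap that was not tested here. ERBB3, the receptor that binds neuregulins, read 171, 168 and 162 CPM in the P. chinensis libraries and 244, 266 and 259.9 CPM in the B. chinense libraries (log2 fold change -0.62 ± 0.043 SE, adjusted p = 3.3e-06), 1.54-fold lower. LRIG1, a membrane protein that restrains these receptors, was lower at -0.60 (adjusted p = 0.0033), and ERRFI1, a cytoplasmic inhibitor of the EGF receptor, was higher at 0.24 (0.00067). In all, 4 of the 11 members tested were higher and 2 lower (36.4% and 18.2%, against 10.8% and 12.8% of all genes).

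Among the NF-kB subunits and feedback inhibitors, 9 of 16 were higher and none lower (median 0.32). TNFAIP3, the ubiquitin-editing enzyme A20 that shuts NF-kB signalling down, read 41.5, 43.3 and 39.2 CPM in the P. chinensis libraries and 21.02, 22.9 and 17.1 CPM in the B. chinense libraries (log2 fold change 1.03 ± 0.11 SE, adjusted p = 5.9e-05), a 2.04-fold difference over B. chinense, with a control mean of 10.3 CPM. NFKBIA, whose promoter is shown above, read 52.7, 46.5 and 48.8 CPM in the P. chinensis libraries and 25.5, 36.5 and 27.5 CPM in the B. chinense libraries (log2 fold change 0.72 ± 0.12 SE, adjusted p = 0.0022). NFKB2 and RELB, the subunits of the non-canonical pathway, were higher by 0.73 and 0.73 (adjusted p = 0.00014 and 0.0015), and NFKBIZ, a nuclear IkB protein, by 0.42 (0.0003). The subunits of the canonical dimer did not pass the threshold in this fit: RELA stood at 0.19 (adjusted p = 0.057) and NFKB1 at 0.042 (0.76). The inhibitors and the non-canonical subunits thus differed between the herbs, and for NFKB1 no difference was detected. RELA passed with upper quartile normalization (adjusted p = 0.033) and in 3 other alternatives.

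The NF-kB effectors had 11 of 24 higher and 1 lower (median 0.30), and none lower in 5 of the 6 fits that left out a library (all but P. chinensis replicate 3). BIRC3, an inhibitor of apoptosis, read 10.9, 10.9 and 11.2 CPM in the P. chinensis libraries and 2.34, 3.297 and 3.37 CPM in the B. chinense libraries (log2 fold change 1.86 ± 0.18 SE, adjusted p = 3.4e-05), the largest difference of the list at 3.63-fold. CD44, the receptor for hyaluronan, read 30.4, 25.2 and 27.4 CPM in the P. chinensis libraries and 9.34, 8.34 and 7.27 CPM in the B. chinense libraries (log2 fold change 1.74 ± 0.13 SE, adjusted p = 5.5e-06). The control means of these genes were 1.45 and 5.79 CPM, below the B. chinense values. IL32, a proinflammatory cytokine, was higher by 1.102 (adjusted p = 3.5e-06).

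Chemokines and cytokines had 11 of 19 higher and none lower, with a median of 0.83. CXCL8, the neutrophil chemokine interleukin 8, read 89.5, 82.2 and 90.8 CPM in the P. chinensis libraries and 29.5, 29.95 and 22.8 CPM in the B. chinense libraries (log2 fold change 1.68 ± 0.10 SE, adjusted p = 1.4e-06), a 3.195-fold difference. Its control libraries had a mean of 26.2 CPM, within the range of the B. chinense libraries. CXCL1, whose NF-kB match is printed above, read 12.5, 12.3 and 12.0007 CPM in the P. chinensis libraries and 4.46, 7.05 and 5.36 CPM in the B. chinense libraries (log2 fold change 1.12 ± 0.17 SE, adjusted p = 0.00091). CXCL2 read 7.93, 6.91 and 7.09 CPM in the P. chinensis libraries and 2.44, 3.21 and 3.98 CPM in the B. chinense libraries (log2 fold change 1.18 ± 0.21 SE, adjusted p = 0.0021). The coding sequences of these neighbouring genes are alike, so reads could be split between them in the estimated counts. CXCL5, GDF15, a stress-induced cytokine, and TGFB2, a TGF-beta ligand, were higher by 0.87, 0.85 and 0.83 (adjusted p = 9e-06, 6.5e-06 and 6.2e-06). All of these genes had groups that did not overlap.

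Genes that respond to YAP and TGF-beta, and genes of the actin cytoskeleton, were also mostly higher. Of 24 YAP and TGF-beta responsive genes, 14 were higher and 1 lower (median 0.30). ANKRD1, a nuclear protein often used as a YAP readout, read 64.4, 62.5 and 60.6 CPM in the P. chinensis libraries and 32.4, 31.5 and 25.9 CPM in the B. chinense libraries (log2 fold change 1.07 ± 0.086 SE, adjusted p = 9.5e-06), and THBS1, a matrix glycoprotein, was higher by 0.48 (adjusted p = 4.7e-06). The lower gene was SMAD6, an inhibitory SMAD, at -0.40 (0.0097). Of 34 actin and adhesion genes, 25 were higher and 1 lower (median 0.28), and none was lower without B. chinense replicate 1. CAPN2, a calcium-dependent protease of adhesion sites, read 88.5, 94.9 and 87.9 CPM in the P. chinensis libraries and 42.7, 40.2 and 43.4 CPM in the B. chinense libraries (log2 fold change 1.104 ± 0.061 SE, adjusted p = 8e-07), and the actin-binding TAGLN2 and the myosin light chain MYL12B were higher by 0.59 and 0.40 (adjusted p = 3.9e-06 and 2.9e-05). The 4 fibroblast markers, COL1A1, COL1A2, DCN and PDGFRB, summed to 19.6 to 28.7 CPM with P. chinensis and 10.83 to 14.01 CPM with B. chinense. Their part in these differences was not tested.

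Tubulin genes moved in both directions, with 4 of 14 higher and 4 lower (28.6% each, against 10.8% and 12.8% of all genes). TUBA1A, an alpha-tubulin of the nervous system, read 38.5, 41.4 and 39.3 CPM in the P. chinensis libraries and 7.86, 12.8 and 10.99 CPM in the B. chinense libraries (log2 fold change 1.903 ± 0.14 SE, adjusted p = 6.1e-06), a 3.74-fold difference between the herbs. Its control mean was 2.72 CPM. TUBB3, a beta-tubulin typical of neurons, read 132, 127 and 129 CPM in the P. chinensis libraries and 75.1, 72.7 and 77.9 CPM in the B. chinense libraries (log2 fold change 0.78 ± 0.048 SE, adjusted p = 1.6e-06). TUBB, the common beta-tubulin, went the other way at 1054, 1099.7 and 1041 CPM in the P. chinensis libraries and 1553, 1505 and 1559 CPM in the B. chinense libraries (log2 fold change -0.53 ± 0.030 SE, adjusted p = 8.7e-07), as did TUBA1B, the common alpha-tubulin, at -0.43 (adjusted p = 3e-06). The abundant TUBB and TUBA1B were thus lower while TUBA1A and TUBB3 were higher, although tubulins share much sequence and reads could be split between them in the estimated counts.

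Metallothionein genes were higher with P. chinensis. Of 9 genes tested for metallothioneins and the zinc exporter, 7 were higher and none lower (median 0.79), with 1 lower without B. chinense replicate 2. MT1E, a metal-binding protein, read 131, 131 and 142 CPM in the P. chinensis libraries and 79.6, 82.9 and 72.9 CPM in the B. chinense libraries (log2 fold change 0.78 ± 0.058 SE, adjusted p = 5.4e-06), and MT1X, MT1G and MT1M were higher by 0.88, 0.79 and 0.98 (adjusted p = 4e-05, 8.4e-05 and 0.0017). The metallothionein genes are near-identical, so the split between them is uncertain. Of 11 aryl hydrocarbon receptor genes, 4 were higher, 1 lower and 6 not called (median 0.12). These shares, 36.4% higher and 9.09% lower, stood against 10.8% and 12.8% of all genes. The lower gene was NQO1, at -0.16 (adjusted p = 0.0021). CYP1B1, a P450 enzyme of that pathway, read 21.1, 23.2 and 20.6 CPM in the P. chinensis libraries and 8.18, 7.88 and 6.23 CPM in the B. chinense libraries (log2 fold change 1.55 ± 0.14 SE, adjusted p = 1.7e-05), and CYP1A1 read 395, 404 and 393 CPM in the P. chinensis libraries and 289.9, 290.3 and 311 CPM in the B. chinense libraries (log2 fold change 0.42 ± 0.037 SE, adjusted p = 1.5e-05). Both herbs stood above the control means of 2.64 and 136 CPM, by values that were not tested here. TIPARP, a target and inhibitor of the receptor, was higher by 0.43 (adjusted p = 0.00097).

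The NRF2 targets divided, with 8 of 24 higher and 4 lower (median 0.13). These shares, 33.3% and 16.7%, stood against 10.8% and 12.8% of all genes. HMOX1, the heme-degrading oxygenase, read 148, 162 and 164 CPM in the P. chinensis libraries and 66.8, 79.6 and 75.95 CPM in the B. chinense libraries (log2 fold change 1.09 ± 0.067 SE, adjusted p = 1.8e-06), a 2.13-fold difference, with a control mean of 33.6 CPM. Thioredoxin reductase TXNRD1, sulfiredoxin SRXN1 and the ferritin heavy chain FTH1 were higher by 0.39, 0.35 and 0.26 (adjusted p = 1.5e-05, 4.9e-05 and 8.2e-05). Lower were NQO1, a quinone reductase, at -0.16 (0.0021), the NADPH-producing malic enzyme ME1 at -0.20 (0.004), and the cystine transporter SLC7A11 at -0.22 (0.0049). HMOX1 was the member with the largest difference, and the classical target NQO1 lay on the other side.

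The ATF4 stress genes also divided. Of 22 tested, 5 were higher and 8 lower (22.7% and 36.4%, against 10.8% and 12.8% of all genes). PPP1R15A, the GADD34 subunit that restarts translation after stress, read 145, 140.1 and 146 CPM in the P. chinensis libraries and 76.4, 75.7 and 73.1 CPM in the B. chinense libraries (log2 fold change 0.94 ± 0.046 SE, adjusted p = 3.6e-07), and DDIT3, the factor CHOP, read 38.2, 36.1 and 32.4 CPM in the P. chinensis libraries and 19.1, 23.7 and 20.8 CPM in the B. chinense libraries (log2 fold change 0.75 ± 0.10 SE, adjusted p = 0.00044). In contrast, PSAT1, an enzyme of serine synthesis, read 216, 213 and 204 CPM in the P. chinensis libraries and 324, 316 and 310.1 CPM in the B. chinense libraries (log2 fold change -0.59 ± 0.037 SE, adjusted p = 1.8e-06), and the mitochondrial folate enzymes SHMT2 and MTHFD2 were lower at -0.46 and -0.48 (adjusted p = 8.1e-06 and 0.00033). TRIB3, a pseudokinase target of CHOP, was lower as well, at -0.30 (0.0021). The chaperones of the endoplasmic reticulum showed little, with 2 of 20 higher, a count of 1 in 5 of the 6 fits that left out a library (all but B. chinense replicate 2), and 3 lower (median 0.02). Their shares, 10% higher and 15% lower, were near the 10.8% and 12.8% of all genes. HERPUD1, of the degradation machinery, was higher by 0.46 (adjusted p = 0.0038), and HYOU1, PDIA4 and the factor XBP1 were lower at -0.33, -0.22 and -0.19 (0.0006, 0.0024 and 0.00085). Among cytosolic heat shock genes, 7 of 13 were higher and 2 lower, a lower count that was 0 without P. chinensis replicate 1 or 3 and 1 without P. chinensis replicate 2, B. chinense replicate 2 or B. chinense replicate 3, with small differences such as 0.22 for HSPA8 and 0.47 for HSPB1 (adjusted p = 0.0003 and 0.0035).

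Lipid synthesis genes were lower with P. chinensis. Of 24 genes of cholesterol synthesis and uptake, 21 were lower and none higher (87.5% lower, against 12.8% of all genes), and their median log2 fold change was -0.51. INSIG1, which retains SREBP in the endoplasmic reticulum when sterols are plentiful, read 65.1, 61.5 and 61.97 CPM in the P. chinensis libraries and 137, 135 and 121 CPM in the B. chinense libraries (log2 fold change -1.06 ± 0.058 SE, adjusted p = 8e-07). Its control mean was higher still, at 212 CPM. The sterol synthesis enzymes CYP51A1, MSMO1 and DHCR7 were lower at -0.60, -0.69 and -0.69 (adjusted p = 5.6e-07, 2e-06 and 6.5e-06), and MVD, of the mevalonate pathway, was lower at -0.94 (1.2e-05). SREBF2, which encodes the SREBP that governs this pathway, was lower at -0.21 (0.0086).

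Fatty acid synthesis and desaturation followed, with 11 of 14 genes lower and none higher (median -0.58). SCD, the stearoyl-CoA desaturase, read 1689, 1603 and 1664 CPM in the P. chinensis libraries and 3147, 2959 and 3095 CPM in the B. chinense libraries (log2 fold change -0.89 ± 0.031 SE, adjusted p = 5.4e-08), 1.86-fold lower. FASN, the fatty acid synthase, read 1211, 1165 and 1258 CPM in the P. chinensis libraries and 2299, 2141 and 2375 CPM in the B. chinense libraries (log2 fold change -0.91 ± 0.042 SE, adjusted p = 7.8e-07), and FADS2, a desaturase of polyunsaturated fatty acids, read 347, 353 and 359 CPM in the P. chinensis libraries and 668, 643 and 665 CPM in the B. chinense libraries (log2 fold change -0.90 ± 0.031 SE, adjusted p = 5.4e-08). FASN was not called in a fit with a replicate block and the GC correction together (-0.88, adjusted p = 0.089). For all 3 genes the spread within a group was small beside the gap between the groups, and the control means were 4160.3, 3075 and 904 CPM. FADS1, the neighbouring desaturase, and ACSS2, which activates acetate, were lower at -0.80 and -1.102 (adjusted p = 2.4e-07 and 2.9e-05). SREBF1, the SREBP gene of fatty acid synthesis, read 105, 101.99 and 112 CPM in the P. chinensis libraries and 169, 154 and 171 CPM in the B. chinense libraries (log2 fold change -0.63 ± 0.054 SE, adjusted p = 1.3e-05). PNPLA3, a lipid droplet protein regulated by SREBP and not a member of the list, had a 2.22-fold lower value (log2 fold change -1.15 ± 0.14 SE, adjusted p = 0.00021).

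Fatty acid oxidation had 5 of 32 genes higher and 9 lower (15.6% and 28.1%, against 10.8% and 12.8% of all genes; median -0.07). With P. chinensis replicate 1, 2 or 3 left out, 3 were higher. CPT1A, which admits long-chain acyl groups to mitochondria, was higher by 0.50 (adjusted p = 0.0015), and the coactivator PPARGC1A by 1.08 (0.004) from low levels. The acyl-CoA synthetases divided, with ACSL5 higher by 0.78 (2.6e-05) and ACSL4 and ACSL3 lower at -0.59 and -0.54 (1.7e-06 and 1.7e-05). PPARA, the nuclear receptor of this pathway, was lower at -0.55 (0.0008). The plot of the gene lists sets these lipid lists at the far lower end beside the histones and the S phase genes.

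**Figure D3:**
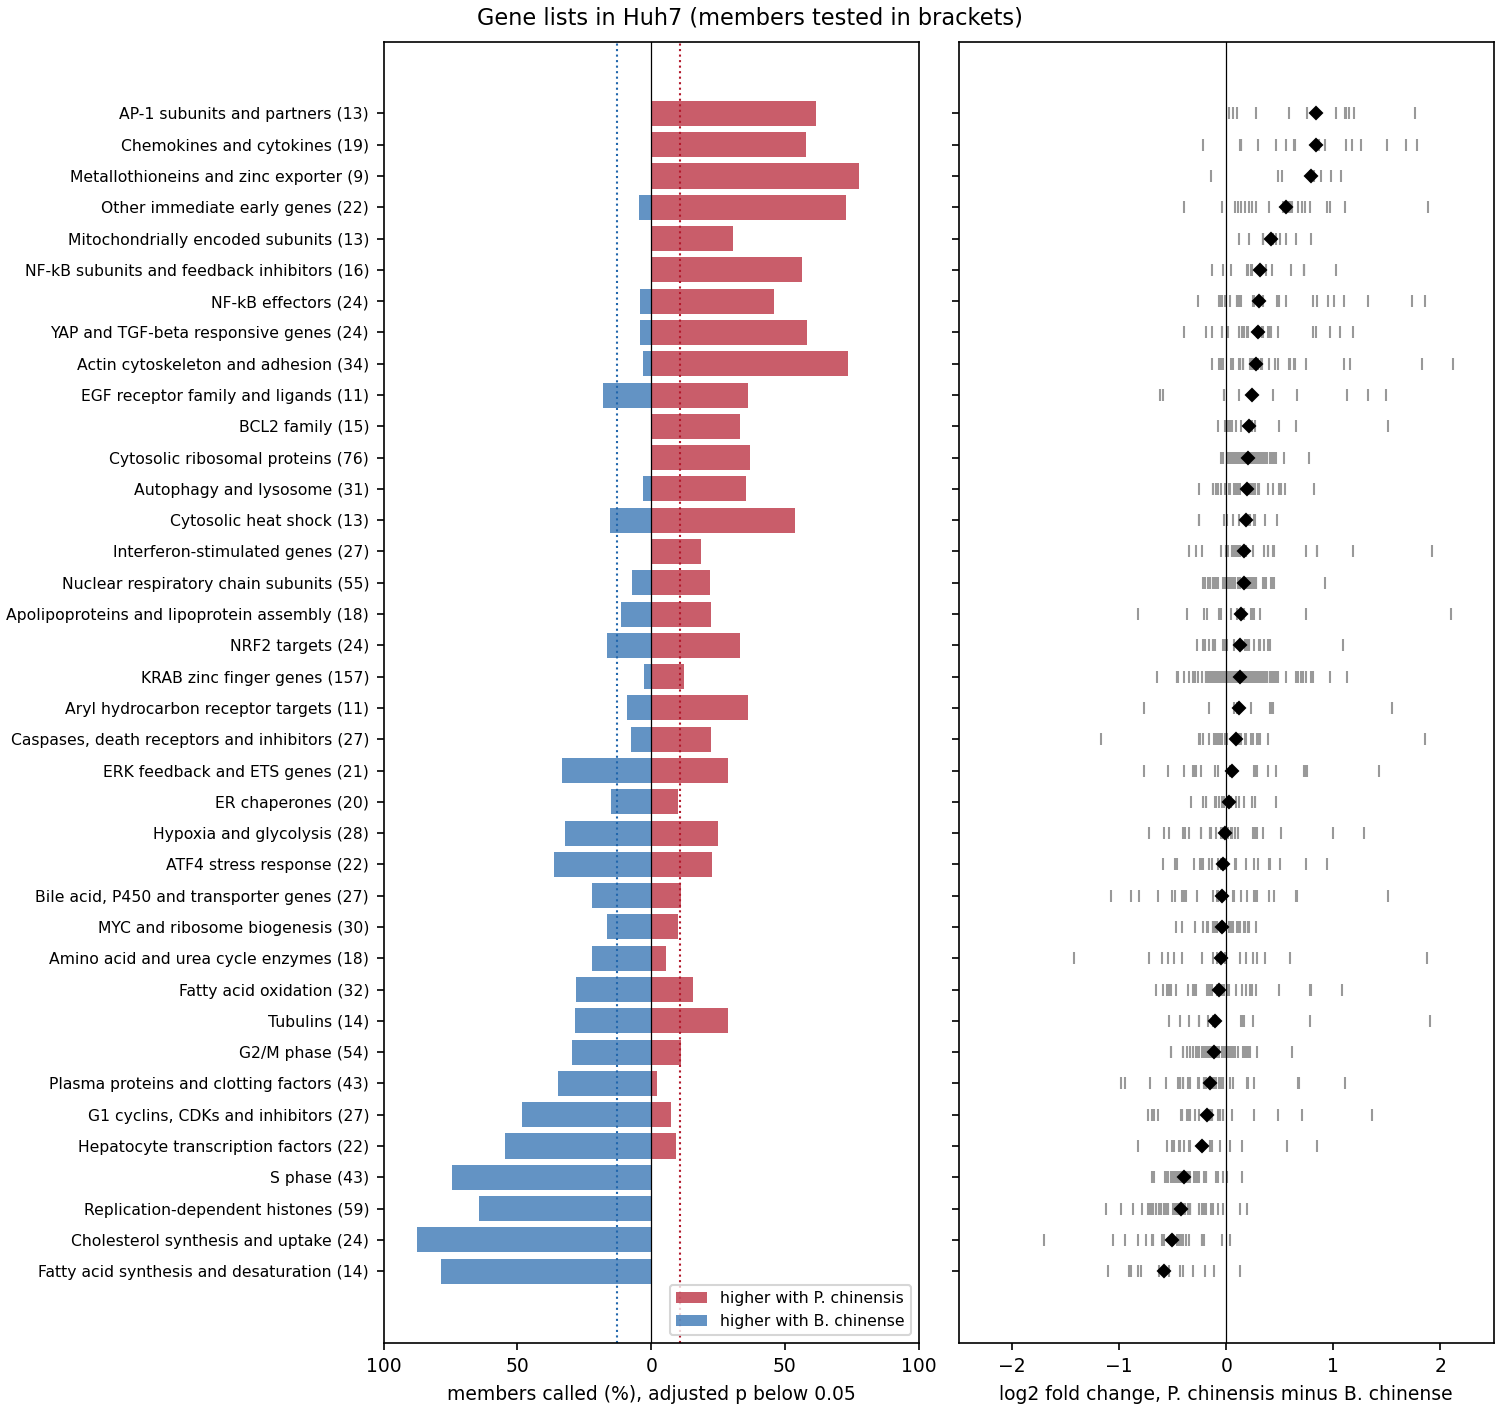
Gene lists in the comparison of the herbs in Huh7 cells. The left panel gives the percentage of tested members called higher and called lower, with dotted lines at 10.8% and 12.8% for all genes, and the right panel the log2 fold change of each member (ticks) and the median of the list (diamond).

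The hepatocyte program was lower in part. Of 22 hepatocyte transcription factors, 12 were lower and 2 higher (median -0.23). CEBPA, a factor of hepatocyte differentiation, read 245, 240.5 and 251 CPM in the P. chinensis libraries and 338, 317 and 339 CPM in the B. chinense libraries (log2 fold change -0.43 ± 0.038 SE, adjusted p = 1.5e-05), and the nuclear receptors NR2F2, RXRA and NR1H4, the bile acid receptor FXR, were lower at -0.51, -0.34 and -0.39 (adjusted p = 6.2e-05, 0.00043 and 0.00049). CREB3L3, a liver factor of lipid metabolism, was higher by 0.57 (7.9e-05), and CEBPD, an acute phase factor, by 0.85 (0.0048). Of 43 plasma proteins and clotting factors, 15 were lower and 1 higher (median -0.15). Albumin (ALB) read 3056, 3059 and 2895 CPM in the P. chinensis libraries and 3889, 3788 and 3844 CPM in the B. chinense libraries (log2 fold change -0.35 ± 0.028 SE, adjusted p = 7.3e-06), and transferrin (TF), the inhibitor heavy chain ITIH2 and complement C5 were lower at -0.41, -0.43 and -0.41 (adjusted p = 5.1e-06, 8e-06 and 1.2e-05). The higher gene was FGB, the fibrinogen beta chain, at 0.26 (0.00057), and there were 2 higher genes without P. chinensis replicate 3 or B. chinense replicate 1.

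Among apolipoproteins and genes of lipoprotein assembly, 4 of 18 were higher and 2 lower (22.2% and 11.1%, against 10.8% and 12.8% of all genes). The higher count was 1 without P. chinensis replicate 3 or B. chinense replicate 3 and 2 without P. chinensis replicate 1. APOB, the structural protein of VLDL and LDL particles (chr2:21001429-21044073, minus strand in GENCODE 44), read 6366, 6179.9 and 5772 CPM in the P. chinensis libraries and 11001, 10815 and 10564 CPM in the B. chinense libraries (log2 fold change -0.82 ± 0.034 SE, adjusted p = 3e-07), 1.77-fold lower. Its control mean was 11291 CPM, so that the B. chinense libraries lay near the control and the P. chinensis libraries far below. MTTP, which loads lipid onto apolipoprotein B, was lower at -0.37 (adjusted p = 0.00015). APOA4, an apolipoprotein of chylomicrons and HDL, was 4.29-fold higher, at 11.1, 11.5 and 13.5 CPM in the P. chinensis libraries and 1.699, 2.93 and 3.63 CPM in the B. chinense libraries (log2 fold change 2.101 ± 0.23 SE, adjusted p = 7.9e-05), the largest among the genes called that averaged 100 counts or more. Among 18 amino acid and urea cycle enzymes, 4 were lower and 1 higher (22.2% and 5.56%, against 12.8% and 10.8% of all genes). The urea cycle enzyme ASL was lower at -0.60 (adjusted p = 0.00015). Bile acid, P450 and transporter genes had 6 of 27 lower, among them CYP4F3 (-0.64, 0.0012), CYP27A1 (-0.51, 0.0053) and the transporter ABCC6 (-0.82, 0.0056), and 3 higher (11.1%, near the 10.8% of all genes), a count of 1 when P. chinensis replicate 1, 2 or 3 was left out.

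The cell cycle genes of S phase were lower with P. chinensis. Of 43 tested, 32 were lower and none higher (74.4% lower), with a median of -0.40. MCM6 read 179.6, 172 and 169.7 CPM in the P. chinensis libraries and 256, 251 and 261 CPM in the B. chinense libraries (log2 fold change -0.56 ± 0.038 SE, adjusted p = 3.1e-06), 1.47-fold lower. HELLS, a chromatin remodeller, read 213, 239 and 214 CPM in the P. chinensis libraries and 363, 348 and 352 CPM in the B. chinense libraries (log2 fold change -0.68 ± 0.047 SE, adjusted p = 3.5e-06), and the helicase subunits MCM5 and MCM2 were lower at -0.54 and -0.47 (adjusted p = 1.1e-05 and 1.2e-05). The 32 genes called were all below the B. chinense level by moderate amounts. RRM2, a ribonucleotide reductase subunit, was an exception in its spread, at 229, 112 and 79.1 CPM in the P. chinensis libraries and 234, 233 and 125 CPM in the B. chinense libraries (adjusted p = 0.6).

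Of the 59 replication-dependent histones tested, 38 were lower and none higher (median -0.43). Their mRNAs lack a poly(A) tail and were kept by a library kit that removes ribosomal RNA from total RNA. H1-1 read 80.7, 79.8 and 76.99 CPM in the P. chinensis libraries and 146, 156 and 134 CPM in the B. chinense libraries (log2 fold change -0.87 ± 0.057 SE, adjusted p = 2.4e-06), and the core histone genes H3C4, H2AC14 and H2BC17 were lower at -0.73, -0.78 and -0.62 (adjusted p = 5e-06, 1.1e-05 and 8.7e-06). Histone genes of a type are near copies, so the share of each is uncertain. Together the 59 genes summed to 5251 to 6064 CPM with P. chinensis and 6809 to 7568 CPM with B. chinense, without overlap.

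G2/M genes differed less, with 16 of 54 lower and 6 higher (median -0.11). TOP2A, the topoisomerase of mitotic chromosomes, read 393, 404 and 374 CPM in the P. chinensis libraries and 557, 574 and 547 CPM in the B. chinense libraries (log2 fold change -0.52 ± 0.036 SE, adjusted p = 3.2e-06), and the proliferation marker MKI67 and the heterochromatin protein CBX5 were lower at -0.34 and -0.40 (adjusted p = 8.1e-05 and 1.7e-05). On the other side, CKS2, a CDK subunit, was higher by 0.61 (8.4e-05), ECT2, of cytokinesis, by 0.22 (0.00089) and CDC20, which activates the anaphase-promoting complex, by 0.17 (0.0093). CDC20 was not called with the block and the GC correction together (0.13, adjusted p = 0.069). The higher share, 11.1%, was near the 10.8% of all genes, and the lower share, 29.6%, stood against 12.8%. After the correction for GC content and length the lower and higher counts were 23 and 4. Among G1 cyclins, CDKs, inhibitors and E2F factors, 13 of 27 were lower and 2 higher, the latter a count of 1 in 5 of the 6 fits that left out a library (all but P. chinensis replicate 3). E2F1, an activating E2F, read 104, 109 and 93.97 CPM in the P. chinensis libraries and 141, 129 and 141 CPM in the B. chinense libraries (log2 fold change -0.42 ± 0.061 SE, adjusted p = 0.00056), E2F2 and the repressor E2F8 were lower at -0.73 and -0.69 (adjusted p = 0.00074 and 0.0005), and the retinoblastoma gene RB1 was lower at -0.29 (0.00089). CDKN2B, the CDK4 and CDK6 inhibitor p15, was higher, at 71.5, 64.98 and 71.2 CPM in the P. chinensis libraries and 38.1, 43.2 and 45.3 CPM in the B. chinense libraries (log2 fold change 0.71 ± 0.076 SE, adjusted p = 6.7e-05). CDKN1A, the inhibitor p21, stood at 22.3, 20.4 and 22.1 CPM in the P. chinensis libraries and 18.5, 17.95 and 17.6 CPM in the B. chinense libraries (adjusted p = 0.084).

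Of the mRNAs of 10 proteins that the study blotted, 1 was higher and 3 were lower (10% and 30%, against 10.8% and 12.8% of all genes). The higher count was 2 without P. chinensis replicate 1 or B. chinense replicate 3. PARP1, a DNA repair enzyme that is cleaved in apoptosis, read 242, 237 and 234 CPM in the P. chinensis libraries and 289, 278 and 278 CPM in the B. chinense libraries (log2 fold change -0.25 ± 0.034 SE, adjusted p = 0.00045), and TFDP1, the partner of E2F proteins, read 50.9, 51.3 and 56.2 CPM in the P. chinensis libraries and 64.7, 69.9 and 68.9 CPM in the B. chinense libraries (log2 fold change -0.37 ± 0.064 SE, adjusted p = 0.0018). MDM2, a ubiquitin ligase, read 238, 244 and 234 CPM in the P. chinensis libraries and 286, 287 and 298 CPM in the B. chinense libraries (log2 fold change -0.28 ± 0.035 SE, adjusted p = 0.0002). These 3 were the lower members of the group. CASP8, FADD and MYC stood at 0.14, 0.0064 and 0.11 (adjusted p = 0.34, 0.96 and 0.11), none of them past the threshold. These are mRNA levels, and cleaved or active protein is not measured by them. In the wider apoptosis machinery, 5 of 15 BCL2 family genes were higher and none lower, among them BMF, a BH3-only activator of apoptosis (0.65, 2.7e-05), and MCL1, an inhibitor of it (0.21, 0.00074). That count was 2 without P. chinensis replicate 1, P. chinensis replicate 3 or B. chinense replicate 2 and 3 without B. chinense replicate 1. Of 27 caspases, death receptors and inhibitors, 6 were higher and 2 lower (7.41%, against 12.8% of all genes), and the lower count was 1 without P. chinensis replicate 3, B. chinense replicate 1 or B. chinense replicate 2. The higher ones included the death receptor TNFRSF21 (0.25, 0.00086) as well as the protective BIRC3.

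The study drew a set of transcription factors from its herb comparisons of these same libraries, so their direction is not independent evidence. Of 32 tested, 14 were higher and 9 lower (43.8% and 28.1%, against 10.8% and 12.8% of all genes). The higher factors by lowest p were FOSB, JUNB, BHLHE40 (0.85, adjusted p = 4.1e-06), a basic helix-loop-helix repressor, and KLF6. The lower ones included NR1H4, ETV4, E2F1 and TFDP1, all given above, and FOXM1, a mitotic factor, stood at 0.081 (0.18).

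The 12 largest differences in each direction among genes that averaged 100 counts or more, with groups that did not overlap, were also taken. On the higher side, beside APOA4, TUBA1A, VGF, BIRC3, FOSB, CD44 and CXCL8, they were SSUH2, RSRP1, GADD45B, CRISPLD2 and OLFML2A. GADD45B, a growth arrest protein induced by TGF-beta and NF-kB, read 62.6, 54.8 and 63.4 CPM in the P. chinensis libraries and 17.6, 19.1 and 18.9 CPM in the B. chinense libraries (log2 fold change 1.697 ± 0.086 SE, adjusted p = 5.3e-07), and CRISPLD2, a secreted matrix protein, read 27.3, 28.8 and 32.98 CPM in the P. chinensis libraries and 9.02, 10.4 and 8.82 CPM in the B. chinense libraries (log2 fold change 1.65 ± 0.12 SE, adjusted p = 4.7e-06). SSUH2, RSRP1 and OLFML2A were higher by 2.01, 1.97 and 1.62 (adjusted p = 8.7e-05, 0.00013 and 3e-05), with B. chinense means of 2.597, 2.51 and 5.09 CPM. Genes with large differences on this side were therefore often expressed at low levels.

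On the lower side, beside PNPLA3, ACSS2 and INSIG1, the list included MYCN, ATR, PIGZ, MLLT6 and 4 transport genes. MYCN, a MYC family oncogene, read 19.5, 19.5 and 18.3 CPM in the P. chinensis libraries and 43.3, 39.3 and 40.7 CPM in the B. chinense libraries (log2 fold change -1.100 ± 0.084 SE, adjusted p = 6.2e-06), 2.14-fold lower, with a control mean of 60.1 CPM. ATR, the kinase of the replication stress checkpoint, read 22.2, 26.2 and 27.9 CPM in the P. chinensis libraries and 43.4, 53.4 and 57.96 CPM in the B. chinense libraries (log2 fold change -1.03 ± 0.12 SE, adjusted p = 0.00019). Both had their B. chinense values nearer to the control mean than their P. chinensis values. PIGZ, a mannosyltransferase of GPI anchors, was lower at -1.11 (adjusted p = 0.0022). The transport genes were the amino acid transporters SLC6A14 (-1.01, 0.00075) and SLC38A3 (-0.98, 0.00029), the organic anion transporter SLCO4C1 (-0.98, 2.4e-05) and WNK4, a kinase that regulates ion transport (-0.96, 1.2e-05). MLLT6 (-1.13, 0.037) was not called without P. chinensis replicate 1 (-0.98, adjusted p = 0.095), without P. chinensis replicate 3 (-1.10, 0.12) or without B. chinense replicate 1 (-1.22, 0.072).

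The same pair of herbs was compared in A549 cells, a human lung carcinoma line, in 6 libraries that share none with the Huh7 comparison. There 27 of 13601 genes were higher with P. chinensis (0.199%) and 55 were lower (0.404%), with 794 and 999 at an unadjusted p below 0.05. The A549 libraries summed to 6803704 to 10570251 counts, mostly less than the Huh7 libraries. The part of depth in the smaller number of calls was not tested. Tested as an interaction on the 12948 genes that passed the filter in both lines, the difference between the herbs was higher in Huh7 than in A549 cells for 493 genes (3.81%) and lower for 337 (2.6%). Of the 3132 of these genes called in Huh7 cells, 2135 (68.2%) had the same sign in A549 cells and 717 were called in the interaction. Among genes called in both lines, 45 had the same sign and 7 the opposite sign. Of 24 cholesterol genes, 16 were among the 337 and none among the 493, and their median log2 fold change was 0.14 in A549 cells. INSIG1 read 59.8, 58.5 and 70.05 CPM with P. chinensis and 55.9, 53.6 and 47.4 CPM with B. chinense in A549 cells, and the herb difference in Huh7 minus that in A549 cells was -1.31 ± 0.11 SE (adjusted p = 4.4e-06). Of 14 fatty acid genes, 8 were among the 337, including SCD (-0.84 ± 0.12 SE, adjusted p = 0.0013) and FASN (-0.78 ± 0.076 SE, adjusted p = 1.8e-05).

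In the higher direction, the interaction held 12 of 32 actin and adhesion genes, 10 of 24 YAP and TGF-beta responsive genes and 10 of 24 NRF2 targets, with HMOX1 at 1.18 ± 0.10 SE, adjusted p = 2.8e-06. CD44 (1.66 ± 0.12 SE, adjusted p = 8.1e-07) and DUSP1 (1.06 ± 0.10 SE, adjusted p = 1.2e-05) were also there, the latter with a smaller difference of the same direction in A549 cells (0.37, adjusted p = 0.036). For CXCL8 and FOSB a difference between the lines was not found. CXCL8 had a log2 fold change of 1.56 ± 0.24 SE in A549 cells (adjusted p = 0.017), and its interaction was 0.13 (adjusted p = 0.83). FOSB stood at 2.600 ± 0.40 SE in A549 cells (adjusted p = 0.046), with an interaction of -0.83 (adjusted p = 0.3). Histones had 15 of 53 lower in A549 cells (median -0.53) and no member in the interaction in either direction, and S phase genes had a median of -0.27 in A549 cells with 2 members in the interaction in each direction. Other members of the same lists did differ between the lines: 4 of 13 AP-1 genes, 6 of 22 immediate early genes and 5 of 17 chemokines and cytokines had a higher herb difference in Huh7 cells (against 3.81% of all genes), and 1 immediate early gene, EGR1, a lower one. JUNB (0.83 ± 0.18 SE, adjusted p = 0.015), KLF4 (1.30 ± 0.18 SE, adjusted p = 0.0004) and TGFB2 (0.61 ± 0.11 SE, adjusted p = 0.0035) were among the higher ones. The plot of both lines shows these genes one by one beside the lipid and S phase genes.

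**Figure D4:**
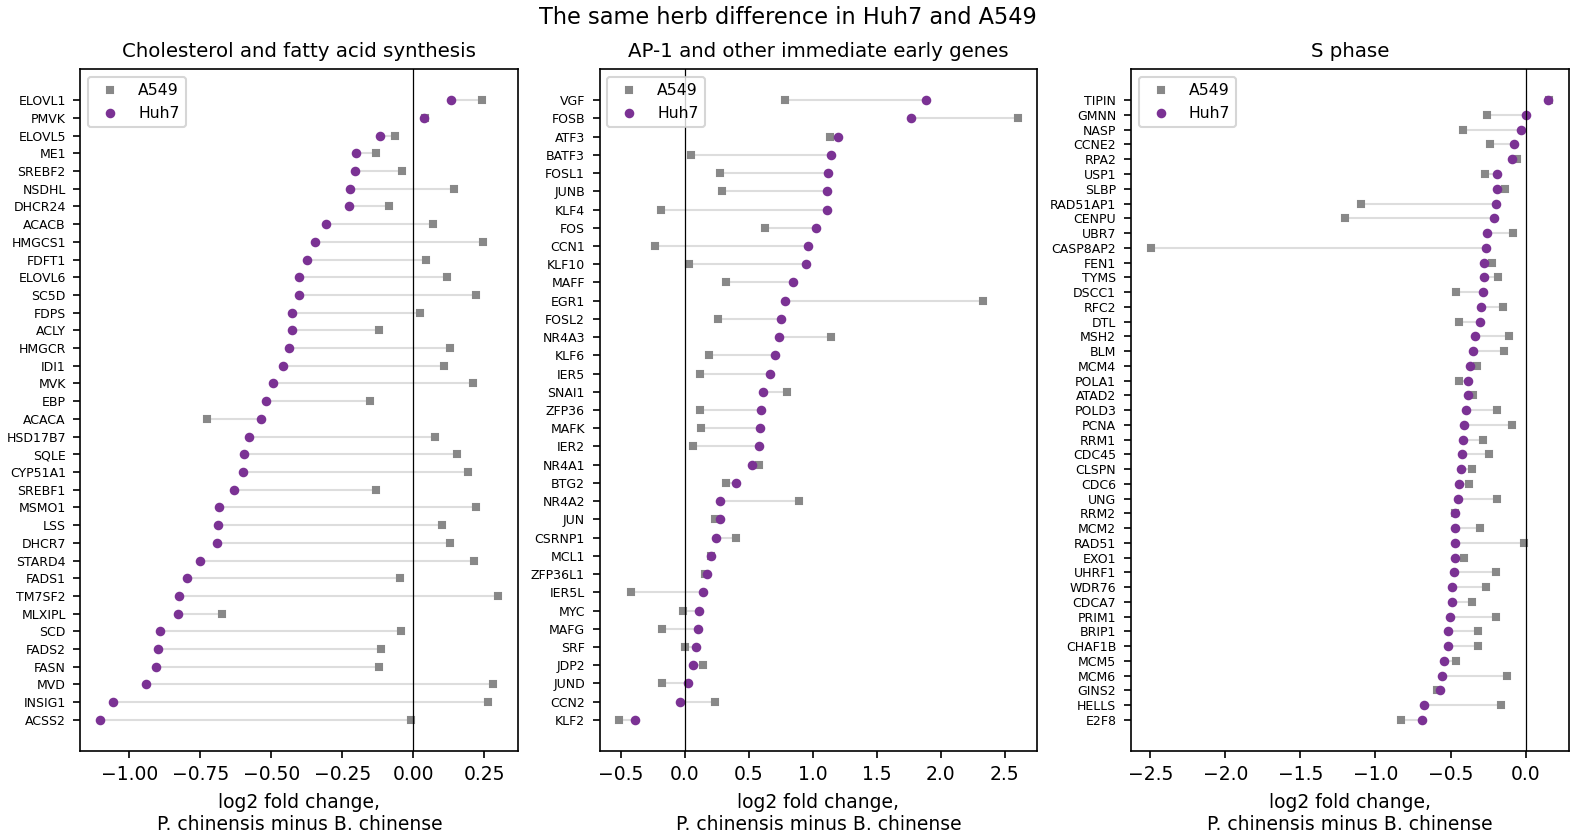
Log2 fold change of P. chinensis over B. chinense in Huh7 cells (circles) and in A549 cells (squares) for lipid synthesis, AP-1 and immediate early, and S phase genes. A line joins the values of a gene; INSIG1 and MVD lie below 0 in Huh7 cells and above 0 in A549 cells, while FOSB and ATF3 lie above 0 in both.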

How the data were processed

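RNA of Huh7 and A549 cells treated with herbal extracts was sequenced as stranded total RNA after removal of ribosomal RNA. Per the study's methods, the authors quantified reads with kallisto on the Ensembl GRCh38.p13 cDNA set and deposited estimated counts per gene, limited to protein-coding genes whose mean count exceeded 5. The deposited values are whole numbers. Totals were 9526159 to 24340250 counts in the 6 Huh7 libraries used, and precision is lowest for genes with few counts.

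Groups were taken from the treatment labels. Genes with a mean count above 5 over the 6 libraries were tested with edgeR 4.0.16 (R 4.3.3; TMM normalization, robust quasi-likelihood fit, prior count 0.125, Benjamini-Hochberg adjusted p below 0.05). CPM were computed from TMM library sizes. The interaction with A549 was fitted on 12 libraries. Tested on simulated counts with 13921 genes and 50 genes changed at each size, the fit called 16 at 1.2-fold, 26 at 1.5-fold, 36 at 2-fold and 42 at 3-fold, with 7 false calls. For the interaction, simulated on 12948 genes, the numbers were 0, 20, 27 and 43 of 50, with 8 false calls. Far fewer genes were changed in the first simulation than the 3284 called in the data. The adjusted p depends on that share, so these rates need not hold for the comparisons reported.

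Named genes were the 12 largest differences per direction (called, mean of at least 100 counts, no overlap), up to 4 called members per direction of each list by lowest p, members not called by their values, mRNAs of blotted proteins, transcription factors of the study, and the 5 largest interaction terms per direction. CXCL1, CXCL2 and NFKBIA fall outside this rule and were named for their promoters after their values were seen. Members and lists were chosen with earlier results of these data known. Gene positions are from GENCODE 44. Alternatives were DESeq2 1.42.0, limma 3.58.1 (voom with sample weights), other normalizations, filters and covariates, thinned counts, shared fits, the replicate block and each library left out. Some results that the rule would name are not reported here.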

Additional observations from a re-analysis of the deposited data

Results flagged for a closer look

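The difference between the herbs was not the same in both cell lines. By the interaction test in edgeR over the 12 libraries of both herbs, 493 genes had a higher P. chinensis minus B. chinense difference in Huh7 than in A549 cells and 337 a lower one. Among genes that averaged 100 counts or more in both lines, the 5 largest on the higher side were CYP1B1 (2.27 ± 0.26 SE, adjusted p = 0.00058), AQP3 (1.97 ± 0.14 SE, adjusted p = 1.1e-06), TUBA1A (1.81 ± 0.13 SE, adjusted p = 1.1e-06), GADD45B (1.74 ± 0.14 SE, adjusted p = 2.8e-06) and OLFML2A (1.70 ± 0.17 SE, adjusted p = 1.5e-05). AQP3, a channel for water and glycerol, read 105, 107 and 117 CPM in the P. chinensis libraries and 43.3, 40.6 and 39.9 CPM in the B. chinense libraries in Huh7 cells. In A549 cells the same herbs gave 21.1, 23.2 and 20.7 CPM and 26.3, 36.2 and 33.1 CPM. CYP1B1 in A549 cells read 235, 216 and 241 CPM with P. chinensis and 283, 415 and 435 CPM with B. chinense (log2 fold change -0.71, adjusted p = 0.2). These genes were thus higher with P. chinensis in Huh7 cells, and the CYP1B1 values in A549 cells lay in the opposite order without passing the threshold.

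On the lower side, 4 of the 5 largest were EGR1 (-1.55 ± 0.34 SE, adjusted p = 0.019), INSIG1 (-1.31 ± 0.11 SE, adjusted p = 4.4e-06), MVD (-1.22 ± 0.13 SE, adjusted p = 3.3e-05) and TM7SF2 (-1.12 ± 0.30 SE, adjusted p = 0.037). INSIG1, MVD and TM7SF2 belong to the sterol genes, and TM7SF2 is a sterol reductase that read 11.4, 9.499 and 8.0004 CPM in the P. chinensis libraries and 21.2, 15.3 and 15.2 CPM in the B. chinense libraries in Huh7 cells. Its A549 libraries read 16.7, 16.2 and 12.8 CPM with P. chinensis and 13.4, 14.9 and 8.49 CPM with B. chinense. EGR1 was higher with P. chinensis in both lines and more so in A549 cells, at 15.1, 15.2 and 30.3 CPM against 3.93, 3.95 and 4.17 CPM (log2 fold change 2.33 ± 0.30 SE, adjusted p = 0.014). The dose and time in each line are not given in the sources used here, so line and exposure cannot be told apart.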

How the results depend on the processing

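Against the 1507 higher and 1777 lower genes, DESeq2 called 1368 and 1659, voom with sample weights 1455 and 1735, size factors by RLE 1500 and 1789, a filter of at least 1 count 1489 and 1797, a mean count above 50 1593 and 1706, and counts thinned to the smallest library 1358 and 1632. Upper quartile normalization gave 1821 and 1423 (56.1% of those called higher) and the correction for GC content and length 1238 and 2238 (35.6%). Leaving out each library gave 994 to 1458 higher and 1271 to 1639 lower genes, with the lowest higher count without P. chinensis replicate 1. The shared fit of all 12 Huh7 libraries gave 503 and 635, and 1269 and 1587 without P. umbellatus replicate 2, an alternative chosen after seeing the data. An unadjusted p below 0.05 gave 2398 and 2526 genes, and a log2 fold change beyond 1 gave 227 and 32.

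The deviations of same-numbered libraries of the herbs correlated at 0.011, -0.069 and -0.048, and those of differently numbered libraries at -0.028 to 0.078. No pairing by replicate number was thus seen. These values cannot decide whether the samples were made in pairs, which the labels do not say. With the replicate block there were 1246 higher and 1534 lower genes, and with the block and the GC correction together 1012 and 1947 (34.2%). For the interaction of 493 and 337 genes, the block gave 367 and 260, DESeq2 577 and 504, RLE 456 and 377, a mean count above 50 473 and 370, and leaving out a library 341 to 459 and 237 to 351.

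Of the 163 named genes that were called, 159 were called under every alternative but the 12-library fit, in which 32 lost the call, among them ALB, CEBPA, E2F1 and SREBF1. The 4 others were KLF2 and MLLT6, given above, and FASN (-0.88, adjusted p = 0.089) and CDC20 (0.13, 0.069) with the block and the GC correction together. No named gene that was called changed sign. Among the 10 named genes not called, JUN passed in 9 alternatives and RELA in 4, 13 of 180 values in all. FADD (0.0064) stood at -0.0073 with voom, -0.0085 in the 12-library fit, -0.029 with the GC correction, -0.027 with the block added, and -0.017 to 0.045 over the fits with 1 library left out. NFKB1 stood at -0.029 with the GC correction, -0.030 with the block added and -0.036 to 0.11 with 1 library left out. The cause was not tested for any of these shifts. Among the lists, 14 of 720 medians and 182 of 1440 counts moved, a count being taken as moved beyond 1.5 times its value. The median SD within a group on the log2 scale was 0.0917 with P. chinensis and 0.122 with B. chinense.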

Other observations

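Energy and translation genes differed by small amounts in the same 6 Huh7 libraries. Of 76 cytosolic ribosomal protein genes, 28 were higher with P. chinensis and none lower (median log2 fold change 0.20), with RPL14 at 0.25 and RPL37 at 0.30 (edgeR, adjusted p = 0.0028 and 0.0037). Leaving out B. chinense replicate 1 or 3 left 15 called and leaving out P. chinensis replicate 3 left 18, while the correction for GC content and transcript length called 16 and DESeq2 42. Of 55 nuclear genes of the respiratory chain, 12 were higher, such as COX4I1 of cytochrome oxidase (0.34, adjusted p = 0.0017), and 4 lower, among them ATP5F1A of the ATP synthase (-0.20, 0.002). That count of 12 was 7 without P. chinensis replicate 3 or B. chinense replicate 3. The lower share, 7.27%, was below the 12.8% of all genes, and the count of 4 was 1 without P. chinensis replicate 1 and 2 without P. chinensis replicate 2 or B. chinense replicate 3. The 13 mitochondrially encoded subunits had a median of 0.42 with 4 called higher, a count of 1 without P. chinensis replicate 1, P. chinensis replicate 3 or B. chinense replicate 1, of 2 without P. chinensis replicate 2, of 11 without B. chinense replicate 2 and of 8 with DESeq2, while mitochondrially encoded genes took a larger share of the counts with P. chinensis in every library, as given above. Among 30 MYC and ribosome biogenesis genes, 3 were higher, a count of 1 when P. chinensis replicate 1, 2 or 3 was left out, and 5 lower, including POLR1B, a subunit of RNA polymerase I (-0.47, 0.00076). These shares, 10% higher and 16.7% lower, were near the 10.8% and 12.8% of all genes.

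Autophagy and lysosome genes had 11 of 31 members higher and 1 lower (median 0.20), led by the cargo receptor SQSTM1, at 798, 794 and 803 CPM in the P. chinensis libraries and 572, 571 and 626 CPM in the B. chinense libraries (log2 fold change 0.44 ± 0.037 SE, adjusted p = 1.3e-05), and MAP1LC3B, which coats autophagosomes (0.52, adjusted p = 6.7e-05). The higher count was 6 without P. chinensis replicate 2 or B. chinense replicate 1 and 7 without P. chinensis replicate 3. Glycolysis and hypoxia genes divided, with 7 of 28 higher and 9 lower (25% and 32.1%, against 10.8% and 12.8% of all genes). The glycolytic enzymes PFKL and GPI were lower at -0.53 and -0.35 (adjusted p = 0.00027 and 0.00032), whereas ENO2, an enolase typical of neurons, was higher by 1.001 (0.0091). The higher count was 1 without P. chinensis replicate 1 or 3 and 3 without B. chinense replicate 3. Of 27 interferon-stimulated genes, 5 were higher and none lower (18.5% and 0%, against 10.8% and 12.8% of all genes). IFITM3, a membrane protein that restricts viruses, read 7.19, 8.12 and 6.04 CPM in the P. chinensis libraries and 3.504, 2.66 and 3.29 CPM in the B. chinense libraries (log2 fold change 1.18 ± 0.20 SE, adjusted p = 0.0017). The higher count was 2 without P. chinensis replicate 1 and 3 without P. chinensis replicate 2 or B. chinense replicate 2, and 1 gene was lower without B. chinense replicate 2. KRAB zinc finger genes, a large family of repressors, had 19 of 157 higher and 4 lower (median 0.13). The higher share, 12.1%, was near the 10.8% of all genes, and the lower share, 2.55%, was below the 12.8%. Without P. chinensis replicate 1, 7 were higher.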
